A study of Mus musculus with 12 samples.

Results

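The genes described here are 47 genes of the G1/S transition and of DNA replication, taken by gene symbol from the 56748 genes of a deposited count table. The rule that picks them uses gene names and no measured value, though the list was drawn up with earlier results of these data known. All 47 symbols were present, and all 47 were among the 16465 genes with enough counts to be tested. RNA had been sequenced from wild-type 10T1/2 cells (C3H10T1/2, an established mouse mesenchymal progenitor line), with 4 libraries in each of 3 groups. All cells were starved in low serum (0.5% FBS), held in suspension for 1 h and then grown for 18 h on 12 kPa hydrogels carrying 0.05 mg/mL type I collagen. The col1 group had collagen alone, the col1-ACLP group had collagen polymerized with 30 nM recombinant aortic carboxypeptidase-like protein (rACLP), and the col1-ACLP+SB group had the same matrix with SB431542, an inhibitor of the TGFβ receptor kinase ALK5, added at 5 µM. All 3 groups were 1 cell line, and no group received SB431542 on collagen alone, so that an action of the inhibitor without ACLP cannot be told apart from its action with ACLP.

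A cell enters S phase when E2F transcription factors, released from the retinoblastoma protein by cyclin-dependent kinases, switch on the genes that copy DNA. In G1 the origin recognition complex, Cdc6 and Cdt1 load the MCM ring onto origins. Cdc45 and the GINS complex then turn the ring into a working helicase, and primase, the replicative polymerases, the PCNA clamp and its RFC loader copy the strands. Nucleotide-making enzymes and histone chaperones act alongside. These transcripts are low in resting cells and rise as cells enter the cycle, and they are often read as a sign of proliferation in cultured fibroblasts. In bulk RNA, more cells in S phase and more RNA per cell cannot be told apart.

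Depth was 29246154 to 52201922 counts per library, and levels are given as TMM-scaled CPM (a gene's counts divided by the library's scaled total). The labelled cell type was checked by 10 mesenchymal markers, among them Col1a1, Pdgfrb, Prrx1 and Vim, which were present in every library, with a summed level of 33989 to 35192 CPM on col1, 43868 to 52791 on col1-ACLP and 40528 to 46074 with SB431542. The higher sum on col1-ACLP came mostly from Col1a1 (means of 11904 CPM on col1 and 20962 on col1-ACLP) and Col1a2 (7307 and 11493), while the means of Pdgfra (420 and 248), Pdgfrb, Prrx1, Vim, Twist1 and S100a4 were lower there. Epcam, Adgre1 and Cd3e were at 0 in all 12 libraries and the 3 endothelial markers together reached at most 0.399 CPM. The 4 leukocyte markers summed to 5.32 to 10.0 CPM, nearly all from Cd68, with 9.14 to 10.0 CPM on col1, 5.32 to 8.72 on col1-ACLP and 7.11 to 9.80 with SB431542, and the 4 epithelial markers to 2.34 to 4.84 CPM. The part of these shifts in the results was not tested. On principal components of all tested genes, col1 replicate 2 stood apart from its group, at -86.7 on the leading component against -11.1 to -8.97 for the other col1 libraries. Over the 47 members its mean log2 deviation from the col1 mean was -0.02, within the -0.04 to 0.04 of the other 3, but deviations of opposite sign cancel in this mean. Single members in it ran from -0.51 for Cdc6 to 0.57 for Fen1. It held the group's lowest value for 15 of the 47 members and the highest for 11.

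E2F proteins bind short GC-rich sequences in the promoters of many of these genes, so the 250 bases before and 50 bases from the annotated start of each gene were searched, on both strands, for the letters TTTCCCGC, TTTCGCGC, TTTGCCGC and TTTGGCGC and for the core GGCGGGAA, which can overlap TTTCCCGC on the other strand. At least 1 of the first 4 was found in 15 of the 47 windows (31.9%), against 3.87% of the windows of 12676 tested protein-coding genes, and the core in 7 (14.9%) against 3.87%. Sites of either kind were in 18 windows (38.3%), against 6.66% of all windows. The stretches below, which lie before the annotated start, are shown because they belong to members described later, of which Mcm4, Mcm5, Mcm6, Cdc6, Pola1 and Rrm1 passed the test in col1-ACLP against col1 and Dscc1 did not. They were read 5′ to 3′ on the gene's own strand from the GRCm39 genome with GENCODE starts, and capitals mark the matched letters, which in Mcm5 and Dscc1 are 2 overlapping matches. They lie at chr16:15455310-15455367 (minus strand) for Mcm4, chr8:75835963-75836020 (plus) for Mcm5, chr1:128287457-128287514 (minus) for Mcm6, chr11:98798411-98798468 (plus) for Cdc6, chrX:92675867-92675924 (minus) for Pola1, chr7:102090810-102090867 (plus) for Rrm1 and chr15:54954097-54954142 (minus) for Dscc1.
Mcm4: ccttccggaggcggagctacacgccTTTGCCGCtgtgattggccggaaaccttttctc
Mcm5: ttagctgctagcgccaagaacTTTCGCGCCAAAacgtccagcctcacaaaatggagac
Mcm6: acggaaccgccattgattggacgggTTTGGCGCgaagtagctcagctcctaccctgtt
Cdc6: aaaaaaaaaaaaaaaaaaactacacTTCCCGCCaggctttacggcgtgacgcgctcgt
Pola1: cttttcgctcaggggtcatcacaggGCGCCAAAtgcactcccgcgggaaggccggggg
Rrm1: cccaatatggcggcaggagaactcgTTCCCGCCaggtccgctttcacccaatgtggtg
Dscc1: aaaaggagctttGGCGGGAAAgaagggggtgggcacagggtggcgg

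The sequences show sites at different distances and on either strand, the nearest beginning 37 bases and the farthest 238 bases before the start, in Mcm6 and Dscc1. Mcm4, Mcm6, Cdc6 and Dscc1 each had a further match outside the stretch shown. The remaining matched members, among them Mcm3, Gins1, Uhrf1, E2f1, E2f2 and Dtl, carried their matches after the start. CCAAT, the letters bound by NF-Y, were in 28 member windows (59.6%) and in 40.0% of all windows. TTTGAA, letters known from cell cycle homology regions of G2/M promoters, were in 5 member windows (10.6%), against 13.7% of all windows and 60.0% of 35 G2/M and mitosis genes. A match is a run of letters, and no binding was measured here.

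On col1, the members spanned a wide range of levels. Per kilobase of gene length (FPKM from the deposited counts), the highest were Gins4 at 16.0 ± 0.746 FPKM (SD, n = 4) and Pcna at 12.5 ± 1.03. Mcm7, E2f1 and Mcm4 followed at 9.71 ± 0.760, 9.57 ± 0.165 and 9.35 ± 0.514 FPKM, and these 3 did not differ beyond their spread. The lowest were E2f2 at 0.127 ± 0.0823 FPKM and Exo1 and Fen1, both at 0.157 FPKM, with SDs of 0.0488 and 0.112. Fen1, a flap endonuclease of lagging-strand synthesis, had only 5 to 42 counts per library. Of its exon bases, 59.0% are shared with a long noncoding gene on the other strand, and how the authors counted reads on overlapping genes is not given in the sources used here. The coefficient of variation among the col1 replicates ran from 1.72% for E2f1 to 70.9% for Fen1.

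Overlap of genes touches other members too. Exon bases are shared with another tested gene in 16 members. In 10 of them the part shared with a single such gene is 10% or more of the exon bases, on the other strand each time. Beside Fen1 these are Gins2 (67.3%, with Gse1), Chaf1a (51.0%, with Ubxn6), Rfc5 (41.4%, with Wsb2), Rfc2, Pcna, Rfc4, Ccne2, Orc1 and Cdc45 (10.6%, with Ufd1). Partners were not added up. Mcm7 shares 6.20% with Ap4m1 and 6.13% with Cops6, and Tk1 9.45% with Syngr2 and 1.81% with Afmid, also on the other strand. Since the strand setting of the counting is not given, reads of these members and of their partners cannot be told apart.

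The comparison of col1-ACLP with col1 asks what ACLP within the collagen does to these transcripts. Most members were higher on col1-ACLP, 24 of them past the test and none lower. Of the 6 subunits of the helicase ring 5 rose, and cyclins E1 and E2, E2f2 and the replication-coupled chromatin factor Uhrf1 rose too; the 24 rose by 1.17 to 2.63-fold. In numbers, 24 of 47 (51.1%) passed edgeR's quasi-likelihood test at a Benjamini-Hochberg adjusted p under 0.05 in the higher direction, where 9.52% of all tested genes did, and 0 passed in the lower direction, where 8.41% did and 1 member, Slbp, had an unadjusted p under 0.05. DESeq2 also called 0 members lower. Also past the fold limit of 0.58 on the log2 scale were 13 members (27.7%), against 2.61% of all genes, and 1 member passed a test against the limit itself (glmTreat). The estimate was above 0 in 41 members (48.5% of all genes), the median log2 fold change (log2FC) was 0.42 against -0.01 over all genes, and the range ran from -0.21 to 1.39. For 21 members every col1-ACLP library lay above every col1 library, as for 10.9% of all genes, and for 1 member, Prim1, every one lay below, as for 10.3%.

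**Figure D1:**
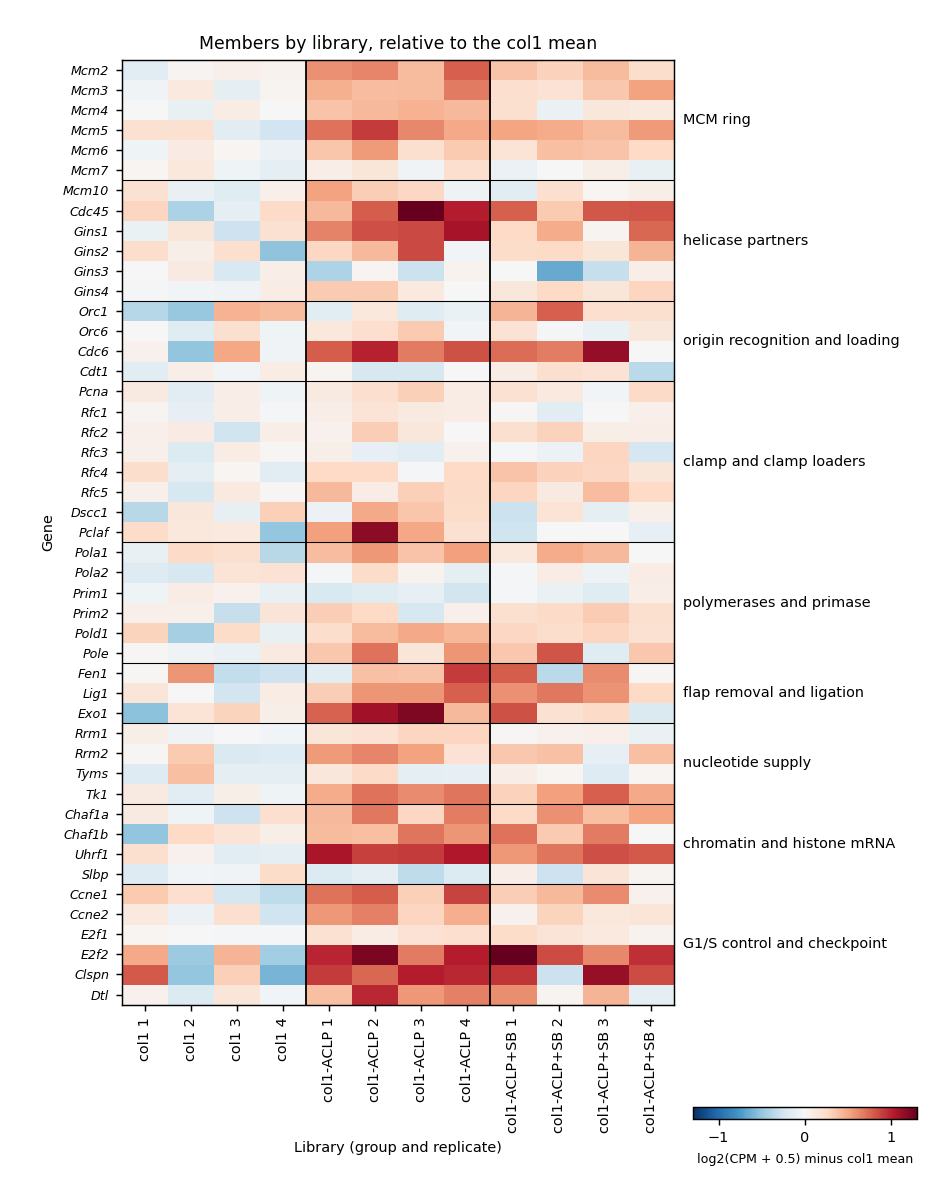
Level of each of the 47 members (rows, grouped by role) in each of the 12 libraries (columns), as log2(CPM + 0.5) minus the mean of the 4 col1 libraries; red is higher and blue lower. The col1-ACLP columns are mostly red, with a mean over members of 0.33 to 0.46 per library, the col1-ACLP+SB columns lie between at 0.21 to 0.29, and the rows of Prim1, Slbp, Cdt1 and Rfc3 are pale or blue on col1-ACLP.

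The shift was present in every col1-ACLP library. The mean over members of log2(CPM + 0.5), relative to the col1 mean, was 0.33, 0.46, 0.35 and 0.37 in col1-ACLP replicates 1 to 4, with a group mean of 0.38 ± 0.06 (SD, n = 4), and -0.04 to 0.04 in the col1 libraries. The groups did not overlap on this mean. Replicate 2 of col1-ACLP was the highest of its group, and it held the group's highest value for 20 of the 47 members. Without it, 13 members passed in place of 24, and 6 in place of 13 passed the fold limit too. Without col1 replicate 4, 16 passed, and without col1 replicate 2, which stood apart, 20. Over 20 alternative settings, of which 12 left out 1 library each, 13 of the 24 passed in every setting: Mcm2, Mcm3, Mcm4, Mcm5, Mcm6, Cdc45, Gins1, Lig1, Rrm1, Tk1, Chaf1a, Uhrf1 and Dtl.

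**Figure D2:**
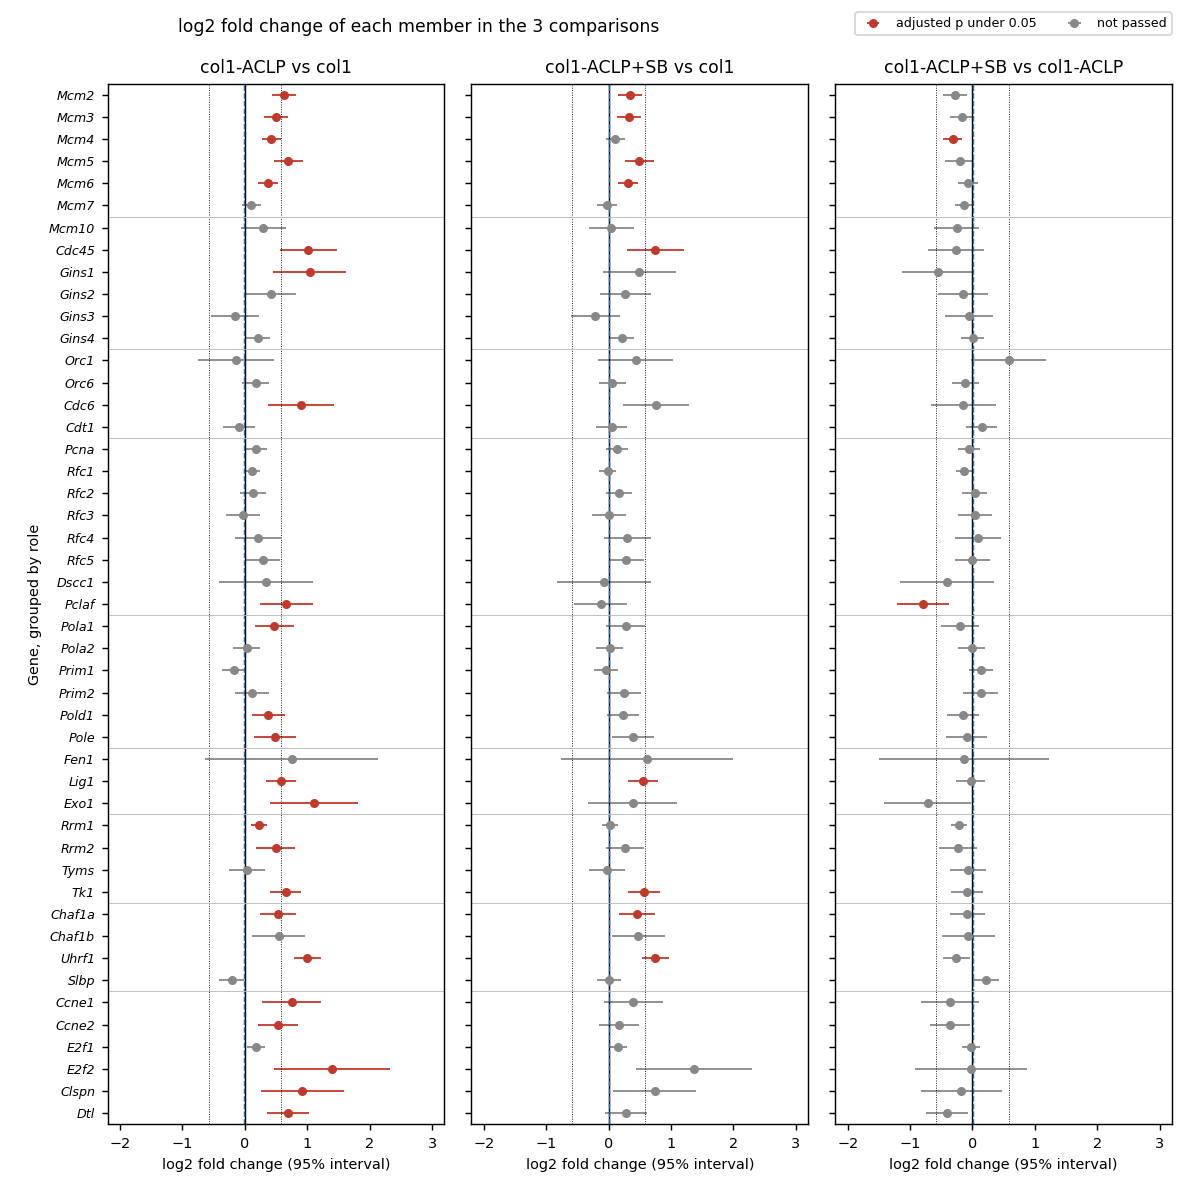
The log2FC of each member (rows, grouped by role) with its 95% interval from edgeR, for col1-ACLP vs col1 (left), col1-ACLP+SB vs col1 (middle) and col1-ACLP+SB vs col1-ACLP (right). Red points passed at an adjusted p under 0.05, dotted lines mark the fold limit of 0.58 and the dashed line the median of all genes; 24, 9 and 2 points are red, all on the right of 0 in the left and middle panels and on the left in the right panel.

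The MCM ring, the core of the replicative helicase, rose nearly as a whole. Of its 6 subunits, 5 passed in col1-ACLP against col1, and in those 5 no col1-ACLP library overlapped a col1 library. Mcm2 (chr6:88860456-88875762) was at 16.2, 18.3, 18.7 and 18.4 CPM in the 4 col1 libraries, at 27.3, 28.0, 24.0 and 31.0 CPM on col1-ACLP and at 23.3, 22.2, 24.0 and 21.0 CPM on col1-ACLP+SB. Every library of both ACLP groups was thus above every col1 library. Its log2FC was 0.62 (SE 0.093, adjusted p = 1.57e-05) in col1-ACLP and 0.34 (adjusted p = 0.0185) in col1-ACLP+SB, both against col1.

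Mcm5 (chr8:75836197-75855067) was at 15.4, 15.4, 12.2 and 11.2 CPM on col1, at 22.1, 25.7, 20.9 and 19.1 CPM on col1-ACLP and at 19.3, 19.0, 18.0 and 19.9 CPM with SB431542. It had the highest log2FC of the ring, 0.70 (SE 0.12, adjusted p = 6.36e-05), and 0.49 (adjusted p = 0.00531) with SB431542. Neither ACLP group overlapped col1. Mcm3 and Mcm6 rose by 0.50 (adjusted p = 0.000308) and 0.38 (adjusted p = 0.000826) on the log2 scale on col1-ACLP, and by 0.33 (adjusted p = 0.0239) and 0.31 (adjusted p = 0.00969) with SB431542.

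Mcm4 (chr16:15441761-15455264), whose promoter carries a match 78 bases before the start, passed on col1-ACLP against col1 and between the ACLP groups. It was at 33.5, 31.3, 35.8 and 33.6 CPM on col1, at 43.6, 45.0, 46.0 and 45.1 CPM on col1-ACLP and at 38.7, 31.7, 37.1 and 36.6 CPM with SB431542. The tight col1-ACLP group lay above all other libraries, while the col1-ACLP+SB group overlapped col1. Its log2FC was 0.42 (SE 0.074, adjusted p = 0.000134) in col1-ACLP against col1, 0.10 (adjusted p = 0.502) in col1-ACLP+SB against col1 and -0.32 (SE 0.074, adjusted p = 0.0253) between the ACLP groups, where Mcm2 was at -0.28 (adjusted p = 0.138). The last call was lost on leaving out any 1 of the 4 col1-ACLP libraries, or replicate 2 or 4 of col1-ACLP+SB, with adjusted p up to 0.0879. Mcm7 was the subunit that did not pass, at 43.0 ± 3.36 CPM on col1, 46.2 ± 3.62 on col1-ACLP and 42.1 ± 2.26 with SB431542 (SD, n = 4), a log2FC of 0.10 with a 95% interval of -0.05 to 0.26 in col1-ACLP against col1.

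Among the proteins that activate or travel with the ring, 2 of 6 passed. Cdc45 (chr16:18599197-18630737), the helicase partner that joins the ring at origin firing, was at 4.12, 2.36, 3.00 and 4.02 CPM on col1, at 4.58, 6.05, 9.49 and 7.23 CPM on col1-ACLP and at 6.04, 4.33, 6.17 and 6.19 CPM with SB431542. All ACLP libraries, with or without inhibitor, were above the highest col1 library. Its log2FC was 1.01 (SE 0.22, adjusted p = 0.00154) in col1-ACLP and 0.75 (adjusted p = 0.0309) in col1-ACLP+SB against col1, and the second call was lost without any 1 of col1 replicates 2 and 3 or col1-ACLP+SB replicates 1, 3 and 4 (adjusted p up to 0.0959).

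Gins1, a subunit of the GINS complex, was at 1.38, 1.72, 1.15 and 1.79 CPM on col1, at 2.63, 3.07, 3.11 and 3.69 CPM on col1-ACLP and at 1.88, 2.28, 1.54 and 2.84 CPM with SB431542. The col1-ACLP libraries were above col1 without overlap, by a log2FC of 1.04 (SE 0.28, adjusted p = 0.00979), and the inhibitor group lay across the gap with a log2FC of 0.49 (adjusted p = 0.365). The other GINS subunits did not pass. Gins2 and Gins4 had log2FC of 0.42 (adjusted p = 0.161) and 0.21 (adjusted p = 0.118) in col1-ACLP against col1 and Gins3 -0.16 (adjusted p = 0.664). Mcm10, a helicase-associated factor, had a log2FC of 0.30 (adjusted p = 0.289).

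Of the 4 members that mark origins and load the ring, Cdc6 alone passed. Cdc6 (chr11:98798627-98814766), the ATPase that recruits the ring to the origin recognition complex, was at 2.64, 1.62, 3.76 and 2.42 CPM on col1, at 4.70, 5.53, 4.31 and 4.85 CPM on col1-ACLP and at 4.47, 4.30, 6.17 and 2.51 CPM with SB431542. The col1 and col1-ACLP groups did not overlap, and replicate 4 of the inhibitor group lay within col1. Its log2FC was 0.90 (SE 0.26, adjusted p = 0.0147) on col1-ACLP, lost without col1 replicate 2 or col1-ACLP replicate 2 (adjusted p up to 0.0505), and 0.75 (adjusted p = 0.0697) with SB431542.

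Its partner Cdt1, a loading factor degraded in S phase, was at 15.4 ± 1.24 CPM on col1 and 14.4 ± 1.38 on col1-ACLP (SD, n = 4; log2FC -0.10, adjusted p = 0.679). The origin recognition subunits Orc1 and Orc6 had log2FC of -0.14 (adjusted p = 0.821) and 0.17 (adjusted p = 0.313). Orc1 was split within col1, at 1.54 and 1.38 CPM in replicates 1 and 2 and 3.10 and 3.00 CPM in replicates 3 and 4. It was at 1.87 to 2.41 CPM on col1-ACLP and at 2.55 to 4.03 CPM with SB431542, without overlap between these 2 groups, but its log2FC of 0.58 between them did not pass (adjusted p = 0.427).

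Of the clamp and its loaders 1 of 8 (12.5%) passed as higher, near the 9.52% of all genes, while 7 of the 8 estimates were above 0, with a median log2FC of 0.20. Pcna, the sliding clamp, was at 32.3, 27.0, 31.6 and 28.7 CPM on col1, at 32.4, 34.7, 37.1 and 31.8 CPM on col1-ACLP and at 34.2, 32.6, 29.1 and 35.4 CPM with SB431542. The groups overlapped, with a log2FC of 0.19 (95% interval 0.01 to 0.36, adjusted p = 0.142) in col1-ACLP against col1. The 5 subunits of the clamp loader RFC, Rfc1 to Rfc5, had log2FC from -0.03 to 0.28 and adjusted p from 0.170 to 0.922. Dscc1, of an alternative loader that acts in sister chromatid cohesion, had a log2FC of 0.34 (adjusted p = 0.621) from about 1.24 CPM.

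Pclaf (chr9:65797519-65810548), a small PCNA-binding protein, was the member that passed. It was at 6.19, 5.75, 5.68 and 3.49 CPM on col1, at 7.67, 12.2, 7.52 and 5.99 CPM on col1-ACLP and at 4.24, 5.17, 5.13 and 4.76 CPM with SB431542. The col1-ACLP libraries overlapped col1 but were all above the inhibitor group. Its log2FC was 0.67 (SE 0.20, adjusted p = 0.0224) in col1-ACLP against col1, -0.12 (adjusted p = 0.822) in col1-ACLP+SB against col1 and -0.79 (SE 0.20, adjusted p = 0.0498) between the ACLP groups. The first call was lost without col1 replicate 4 or col1-ACLP replicate 2 (adjusted p up to 0.182). The third passed in 7 of 20 alternative settings, and among those that left out a library only without col1 replicate 2 or 4 or col1-ACLP replicate 4.

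Of 6 polymerase and primase subunits, the catalytic subunits of the 3 replicative polymerases passed and the others did not. Pola1, the catalytic subunit of the priming polymerase alpha, was at 7.88, 10.1, 9.86 and 6.46 CPM on col1, at 11.3, 12.7, 11.1 and 12.4 CPM on col1-ACLP and at 9.37, 12.0, 11.5 and 8.40 CPM with SB431542. On col1-ACLP all 4 libraries were above col1. Pola1, Pold1 (polymerase delta) and Pole (polymerase epsilon) rose on col1-ACLP by 0.47 (adjusted p = 0.0286), 0.38 (adjusted p = 0.0354) and 0.48 (adjusted p = 0.0397) on the log2 scale. With SB431542 their log2FC against col1 were 0.27, 0.23 and 0.39 (adjusted p = 0.334, 0.333 and 0.163).

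Each of these 3 calls was lost on leaving out some libraries: for Pola1 col1 replicates 1 and 4 and col1-ACLP replicates 2 and 4 (adjusted p up to 0.115), for Pold1 col1 replicates 2 and 4 and col1-ACLP replicates 2, 3 and 4 (up to 0.127), and for Pole col1 replicates 1, 2 and 3 and col1-ACLP replicates 2 and 4 (up to 0.159). The accessory subunit Pola2 had a log2FC of 0.03 (adjusted p = 0.897) and the primase subunits Prim1 and Prim2 of -0.18 (adjusted p = 0.216) and 0.12 (adjusted p = 0.637). Prim1 was at 18.4 to 21.1 CPM on col1 and at 16.7 to 18.3 CPM on col1-ACLP.

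Okazaki fragments are finished by flap removal and ligation. Lig1, DNA ligase I, was at 15.9, 14.2, 11.9 and 15.3 CPM on col1, at 18.0, 21.5, 21.4 and 24.8 CPM on col1-ACLP and at 21.7, 23.3, 21.6 and 17.1 CPM with SB431542. Both ACLP groups were above col1 and lay over the same range, with log2FC of 0.58 (SE 0.12, adjusted p = 0.000772) and 0.54 (SE 0.12, adjusted p = 0.00247) against col1, and -0.03 (95% interval -0.27 to 0.21) between them. At 0.576 the former was just inside the fold limit. Exo1, an exonuclease of replication and mismatch repair, was at 0.731, 1.51, 1.67 and 1.37 CPM on col1, at 2.54, 3.29, 3.64 and 1.88 CPM on col1-ACLP and at 2.65, 1.54, 1.62 and 1.06 CPM with SB431542. It rose on col1-ACLP by 1.10 (SE 0.34, adjusted p = 0.0253) on the log2 scale, a call lost without col1 replicate 1 or col1-ACLP replicate 2 or 3 (adjusted p up to 0.0947). For Fen1, too low for a close reading, the log2FC of 0.75 had a 95% interval of -0.64 to 2.14.

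Of 4 genes that supply nucleotides, 3 rose on col1-ACLP. Tk1 (chr11:117706352-117716918), the cytosolic thymidine kinase, was at 9.84, 8.16, 9.53 and 8.67 CPM on col1, at 12.8, 15.0, 14.1 and 15.0 CPM on col1-ACLP and at 11.2, 13.3, 15.9 and 12.9 CPM with SB431542. Neither ACLP group overlapped col1, and the log2FC against col1 were 0.65 (SE 0.12, adjusted p = 0.000341) and 0.56 (SE 0.12, adjusted p = 0.00290). Rrm1, the large subunit of ribonucleotide reductase, was at 53.2, 48.8, 50.4 and 49.3 CPM on col1, at 56.2, 57.6, 61.3 and 61.3 CPM on col1-ACLP and at 51.1, 52.5, 52.9 and 47.6 CPM with SB431542. The col1-ACLP libraries were above all others, though the change of 0.23 on the log2 scale (SE 0.063, adjusted p = 0.0108) was the smallest of the 24. Its log2FC was 0.02 (adjusted p = 0.935) with SB431542 against col1 and -0.21 (adjusted p = 0.0986) between the ACLP groups. Rrm2, the small subunit, rose by 0.49 (adjusted p = 0.0208), a call lost without col1 replicate 3 or 4 or col1-ACLP replicate 1, 2 or 3 (adjusted p up to 0.0765). Tyms, thymidylate synthase, had a log2FC of 0.04 (95% interval -0.25 to 0.33).

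Uhrf1 (chr17:56610321-56630486), which reads hemimethylated DNA behind the fork and recruits the maintenance methyltransferase, had the smallest adjusted p of the 47 in both comparisons with col1. It was at 13.3, 11.9, 10.4 and 10.5 CPM on col1, at 24.5, 21.6, 22.0 and 24.0 CPM on col1-ACLP and at 17.2, 18.8, 20.9 and 20.2 CPM with SB431542. The 3 groups formed 3 steps with no overlap. The log2FC was 1.00 (SE 0.10, adjusted p = 6.71e-08) on col1-ACLP and 0.74 (SE 0.10, adjusted p = 1.40e-05) with SB431542 against col1, and -0.26 (SE 0.10, adjusted p = 0.258) between the ACLP groups, so the step between the ACLP groups did not pass. Uhrf1 on col1-ACLP was also the only member past edgeR's test against the fold limit itself.

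The chromatin assembly factor CAF-1, which places histones on new DNA, has its large subunit in Chaf1a and its middle subunit in Chaf1b. Chaf1a rose on col1-ACLP by 0.53 (SE 0.14, adjusted p = 0.00767) and with SB431542 by 0.45 (adjusted p = 0.0417) on the log2 scale. The second call was lost without col1 replicate 2 or 3, col1-ACLP replicate 1 or col1-ACLP+SB replicate 2, 3 or 4 (adjusted p up to 0.148). Chaf1b was at 2.64, 4.85, 4.58 and 4.23 CPM on col1 and at 5.47, 5.36, 6.78 and 6.17 CPM on col1-ACLP, without overlap, but its log2FC of 0.54 had an adjusted p of 0.0719. Slbp, which binds the stem-loop of histone mRNAs, had the lowest estimate of the 47, -0.21 (95% interval -0.41 to -0.01, adjusted p = 0.155), at 31.4 ± 3.96 CPM on col1 and 27.2 ± 1.69 on col1-ACLP (SD, n = 4).

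**Figure D3:**
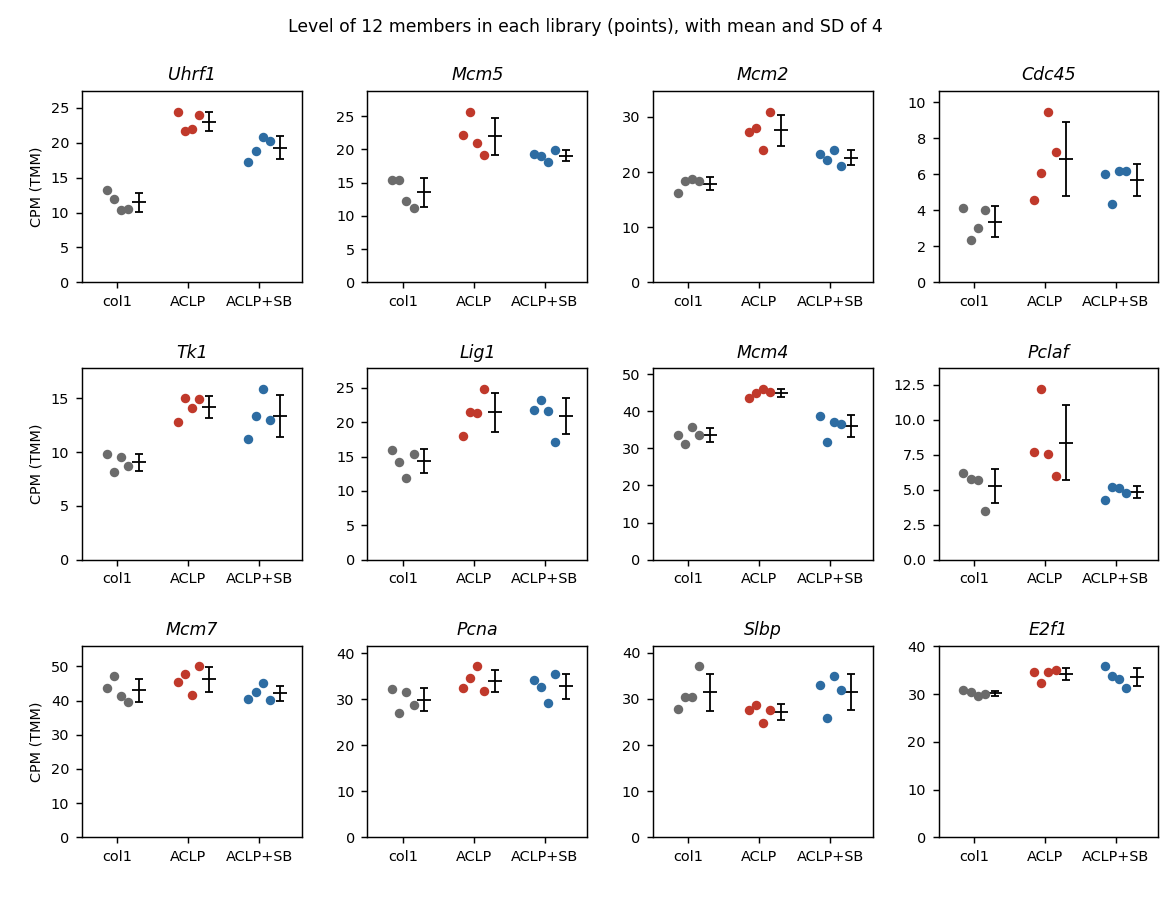
CPM (TMM-scaled, axis from 0) of 12 members in each library (points, 4 per group), with the group mean and SD as a bar beside the points. Uhrf1, Mcm5, Mcm2, Cdc45, Tk1 and Lig1 are above col1 in both ACLP groups, Mcm4 and Pclaf passed as lower with SB431542 than on col1-ACLP, and Mcm7, Pcna, Slbp and E2f1 passed in no comparison.

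The regulators of the G1/S switch showed 5 of 6 past the test. Ccne1 and Ccne2 encode the E-type cyclins that activate Cdk2. Ccne1 was at 3.65, 3.31, 2.31 and 2.12 CPM on col1, at 4.86, 5.17, 3.57 and 5.53 CPM on col1-ACLP and at 3.59, 3.89, 4.53 and 2.91 CPM with SB431542. The lowest col1-ACLP library lay just below the highest col1 library. Ccne2 was at 4.63 to 6.56 CPM on col1, at 6.91 to 9.12 CPM on col1-ACLP and at 5.87 to 6.98 CPM with SB431542. The log2FC were 0.75 (SE 0.23, adjusted p = 0.0223) and 0.53 (SE 0.15, adjusted p = 0.0168) on col1-ACLP, and 0.39 (adjusted p = 0.365) and 0.17 (adjusted p = 0.636) with SB431542. Both calls were lost without col1 replicate 4 or col1-ACLP replicate 2, and that of Ccne1 also without col1 replicate 3 or col1-ACLP replicate 4 (adjusted p up to 0.0811 for Ccne1 and 0.0687 for Ccne2).

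The activator E2Fs differed from each other in level and spread. E2f1 was at 30.8, 30.4, 29.6 and 30.0 CPM on col1, at 34.6, 32.4, 34.6 and 35.1 CPM on col1-ACLP and at 35.8, 33.9, 33.1 and 31.3 CPM with SB431542. Both ACLP groups were above col1 without overlap, but by a log2FC of only 0.18 (SE 0.072, adjusted p = 0.0936) and 0.15 (adjusted p = 0.238), which did not pass. E2f2 was at 0.992, 0.265, 0.941 and 0.279 CPM on col1, at 1.62, 1.99, 1.20 and 1.67 CPM on col1-ACLP and at 2.28, 1.41, 1.14 and 1.55 CPM with SB431542, from 10 to 38 counts on col1. It had the highest log2FC of the 47 members, 1.39 (SE 0.45, adjusted p = 0.0324), lost without col1 replicate 2 or 4 or col1-ACLP replicate 1, 2 or 4 (adjusted p up to 0.0973). With SB431542 the log2FC against col1 was nearly the same at 1.37 but did not pass (adjusted p = 0.0587).

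Clspn (claspin, an adaptor of the replication checkpoint) was split within col1, at 4.31 and 2.94 CPM in replicates 1 and 3 and 1.46 and 1.32 CPM in replicates 2 and 4. It was at 4.70, 4.15, 5.14 and 4.96 CPM on col1-ACLP and at 4.78, 1.78, 5.58 and 4.50 CPM with SB431542. The log2FC of 0.92 (SE 0.32) on col1-ACLP passed narrowly (adjusted p = 0.0496), and in the 12 fits without 1 library it passed only without col1 replicate 1 or col1-ACLP+SB replicate 2 (adjusted p up to 0.164). Dtl, the substrate receptor by which a ubiquitin ligase removes Cdt1 in S phase, was at 8.17, 6.91, 8.83 and 7.67 CPM on col1, at 10.4, 16.0, 11.8 and 12.7 CPM on col1-ACLP and at 12.2, 8.09, 10.8 and 7.14 CPM with SB431542. It rose by 0.69 (SE 0.16, adjusted p = 0.00303) on col1-ACLP, without overlap, and had a log2FC of 0.28 (adjusted p = 0.360) with SB431542.

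The comparison of col1-ACLP+SB with col1 asks what remained when ALK5 was inhibited. Again no member passed as lower, and 9 passed as higher: 4 MCM subunits (Mcm2, Mcm3, Mcm5 and Mcm6), Cdc45, Lig1, Tk1, Chaf1a and Uhrf1. These were 19.1% of the members, where 4.6% of all genes passed as higher, and 0 passed edgeR's test as lower, where 4.54% did; 0 were lower at an unadjusted p under 0.05 and 0 by DESeq2. The fold limit was passed by 2 members, Uhrf1 and Cdc45 (1.27% of all genes), but by 6 without col1 replicate 1, by 4 without col1 replicate 3 or with limma-voom, by 1 without col1 replicate 2 or col1-ACLP+SB replicate 3, and by 0 with glmTreat. Further, 13 members lay above col1 in every library (6.7% of all genes) and 0 below it in every library (6.32%), the estimate was above 0 in 40 members (50.9% of all genes), and the median log2FC was 0.27 against 0.00 over all genes. Of the 9 calls, those of Mcm5, Mcm6, Lig1, Tk1 and Uhrf1 held in all 20 alternative settings. That of Mcm2 was lost without col1 replicate 1 or col1-ACLP+SB replicate 1 or 3 (adjusted p up to 0.0729), and that of Mcm3 without col1 replicate 1 or 3 or col1-ACLP+SB replicate 3 or 4 (up to 0.118). None of the 6 G1/S control and checkpoint genes, 8 clamp genes, 6 polymerase and primase genes or 4 loading genes passed. At the 4.6% of all genes, few calls would fall in lists this small, so the absence sets these roles apart from no other genes. In the order named, 3, 1, 1 and 1 of them had an unadjusted p under 0.05, as had 3278 of all 16465 genes tested.

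All 9 also passed in col1-ACLP against col1, and the other 15 of the 24 passed there only. The comparisons share the 4 col1 libraries, so this overlap is not independent evidence, and a pass in one and not in the other does not show a difference. That difference is tested by col1-ACLP+SB against col1-ACLP, in which Mcm4 and Pclaf passed as lower (0.905% of all genes did) and none as higher (0.571% of all genes did), where by edgeR 1 member, Slbp, had an unadjusted p under 0.05 and DESeq2 called 0. Pclaf also passed the fold limit, as did 0.0425% of all genes in the lower and 0.085% in the higher direction. Every library was lower with SB431542 for 5 members (Mcm4, Rfc1, Pclaf, Rrm1 and Uhrf1; 4.52% of all genes) and higher for 1, Orc1 (3.65%). The estimate lay below 0 in 38 of the 47 members and above 0 in 9 (51.2% of all genes), with a median of -0.13 against 0.00 over all genes.

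Between the ACLP groups, 9 of the 47 members had an unadjusted p under 0.05, Mcm4 and Pclaf among them, as had 2111 of all 16465 genes tested. The others of these, which did not pass, show the width of this test. For Mcm2, Exo1, Rrm1, Uhrf1, Ccne2 and Dtl the log2FC between the ACLP groups was -0.28, -0.72, -0.21, -0.26, -0.36 and -0.41, and for Slbp 0.22. Their 95% intervals did not include 0, but their adjusted p ran from 0.0986 to 0.366. For Lig1, Tk1, Chaf1a and Mcm6 the estimates lay between -0.03 and -0.09. Their intervals reached from -0.37 to 0.20 for Chaf1a and from -0.34 to 0.16 for Tk1, which leaves room for a modest change in either direction. Summed over the 47 members, the level was 671 ± 7.68 CPM on col1, 821 ± 26.7 on col1-ACLP and 760 ± 8.68 with SB431542 (SD, n = 4).

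The fold limit was met mostly by low members, and passing the test was not. Among 29 members with a mean of 10 CPM or more over the 12 libraries, 15 rose in col1-ACLP against col1 and 5 of them passed the fold limit, with a median log2FC of 0.23. Among the 18 below 10 CPM, 9 rose and 8 of them passed the fold limit, with a median of 0.61. The median SE was 0.11 in the former and 0.22 in the latter, so a low member had to change more to pass. Promoter letters were set beside these changes as a description, with no test. Of the 18 with an E2F match, 12 rose, with a median log2FC of 0.45 over the 18, and of the 29 without, 12 rose, with a median of 0.38.

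Lists of related genes are given as counts and medians, and no difference between a list and the members was tested. Of 45 further replication genes, 10 (22.2%) rose on col1-ACLP and 0 fell, against 9.52% and 8.41% of all genes, with a median log2FC of 0.21. Among the largest were Wdhd1 (a replisome scaffold; 5.03 ± 1.05 to 9.47 ± 1.87 CPM, log2FC 0.91, adjusted p = 0.000802), Mtbp (which helps fire origins; log2FC 0.81, adjusted p = 3.71e-05) and Asf1b (a histone chaperone; log2FC 0.72, adjusted p = 0.0127). The smallest, Rnaseh2a, Rpa3, Orc3 and Mcmbp, lay between -0.04 and 0.05. With SB431542, 3 of the 45 (6.67%) passed as higher against col1, near the 4.6% of all genes, among them Wdhd1 and Mtbp with log2FC of 0.87 and 0.62. Between the ACLP groups 0 passed. There 3 of the 45 had an unadjusted p under 0.05, as had 2111 of all 16465 genes tested.

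Of 29 other G1/S control genes, 4 (13.8%) rose and 2 (6.90%) fell on col1-ACLP, near the 9.52% and 8.41% of all genes, with a median log2FC of 0.05. Those that rose were E2f7, a repressor of E2F targets (log2FC 1.00, adjusted p = 0.00835), Ccna2, the S-phase cyclin A2 (0.76, adjusted p = 0.000471), and the D-type cyclins Ccnd2 (0.33) and Ccnd1 (0.22). Those that fell were Cdk4, the kinase partner of D-type cyclins (by 0.17, adjusted p = 0.00858), and Cdkn1a, the inhibitor p21 (by 0.13, adjusted p = 0.0434). Ccnd1, Ccnd2, Cdk4 and Cdkn1a were named after their values had been seen. Cdkn2a had a higher log2FC, 1.04, but at 0.163 CPM on col1 it did not pass (adjusted p = 0.602). With SB431542 only E2f7 passed against col1 (0.86, adjusted p = 0.0401).

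**Figure D4:**
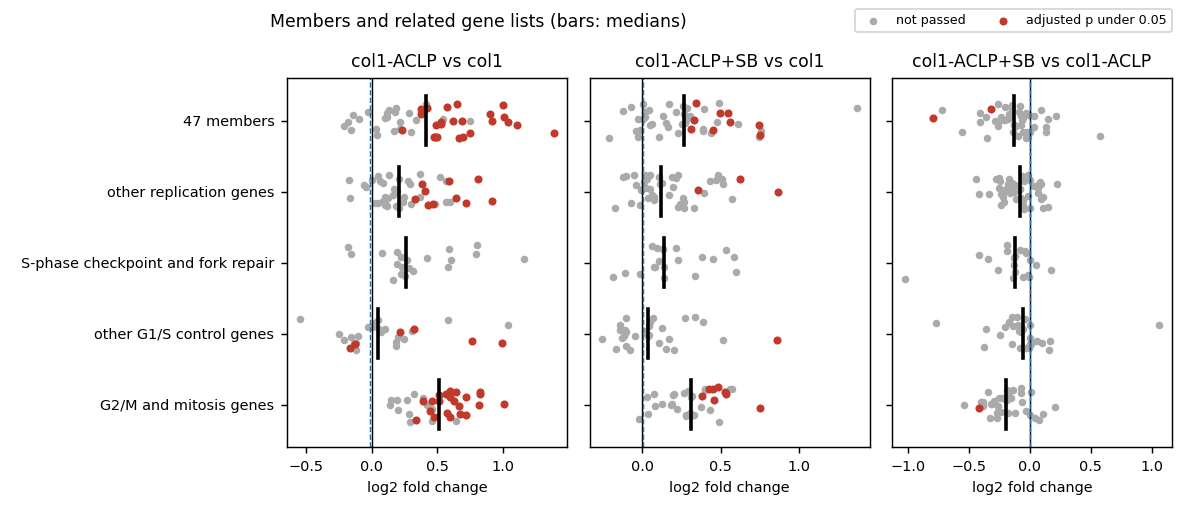
The log2FC of each gene (points, placed at random heights within a row) for the 47 members and 4 related lists in the 3 comparisons; red points passed at an adjusted p under 0.05, bars are list medians and the dashed line is the median of all genes. In the left panel the medians are 0.42 for the members, 0.21 for other replication genes, 0.26 for checkpoint and fork repair genes, 0.05 for other G1/S control genes and 0.51 for G2/M and mitosis genes.

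Of 35 G2/M and mitosis genes, which act in the later cycle phases, 22 (62.9%) rose on col1-ACLP and 0 fell, with a median log2FC of 0.51. Of all genes, 9.52% rose and 8.41% fell. The 22 included Aurkb (the kinase of the chromosomal passenger complex; log2FC 1.01, adjusted p = 0.000552), Ttk (0.83), Bub1 (0.82) and Ect2 (0.82), and at the other end Mybl2 and Cdk1 at 0.14 and 0.15 did not pass. With SB431542, 8 (22.9%) passed as higher against col1, where 4.6% of all genes did, with a median of 0.31. Between the ACLP groups 1 (2.86%), Anln, was lower than on col1-ACLP, where 0.905% of all genes were (-0.42, adjusted p = 0.0259; named after its values had been seen). Of 20 genes of the S-phase checkpoint and fork repair, 0 passed the edgeR test in any comparison. In the comparisons in the order given above, 7, 2 and 1 had an unadjusted p under 0.05. Of all 16465 genes tested, 4661, 3278 and 2111 had one. The median log2FC of the 20 genes in col1-ACLP against col1 was 0.26. Of 64 replication-dependent histone genes, 33 had enough counts, and H2bc4 was the one that passed, with log2FC of 0.36 (adjusted p = 0.000720) on col1-ACLP and 0.33 with SB431542. This is 3.03% of the 33, below the 9.52% and 4.6% of all genes that passed as higher in these 2 comparisons. Most histone mRNAs of S phase lack a poly(A) tail, and the libraries were made from poly(A) RNA, so these levels cover only the polyadenylated part.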

How the data were processed

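The assay was bulk RNA-seq of 10T1/2 cells, with 12 libraries. Poly(A) libraries were made by a service provider and read as 150-bp pairs. The authors mapped reads with HISAT2 to GRCm39 according to the study's methods, while the submitters' processing notes list mm10; the coordinates in the table match GRCm39. The authors deposited raw counts per gene, without normalization, in 1 table whose 12 count columns were all used. The counting tool, its strand setting and its handling of reads with several positions are not given in the sources used here.

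Counts were fitted in R 4.3.3 with edgeR 4.0.16 (filterByExpr, which kept 16465 genes, TMM factors of 0.966 to 1.02, glmQLFit and glmQLFTest), with all 12 libraries and group as the only term. P-values were adjusted by Benjamini-Hochberg over all tested genes, with a threshold of 0.05, and the fold limit of 0.58 on the log2 scale from the study's methods was counted separately. Replicate variation, as the root of edgeR's common dispersion, was 0.153, and replicates differed by more than sampling noise (chi-square per degree of freedom 7.32 to 19.7), so none was counted as a duplicate. The labels number the samples and the study calls them biological replicates, without saying how they were separated, so p-values measure the spread between these libraries. CPM and FPKM were computed from the deposited counts with the gene lengths of the table. Reads carry no molecular identifiers. Counting error is part of the spread between replicates and weighs most in low genes.

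The 47 members, their roles and the related lists were chosen with earlier results of these data known. All members could be named, with values in every library for those past the test and the fold limit on col1-ACLP and for at least 1 of each role, and genes of the related lists were named as up to 4 of the largest and smallest in size of change, with 1 that is not reported here. Promoter windows were read from GRCm39 with GENCODE M39 canonical starts. Alternatives were edgeR's RLE factors, library size alone, no filter, a mean of at least 10 counts, a replicate block, fits of 2 groups, limma-voom (limma 3.58.1), DESeq2 1.42.0, a test against the fold limit (glmTreat) and each library left out in turn.

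The steps were tested on simulated data, with 16465 genes of which 200 changed in each comparison. Of genes changed by 1.5-fold it recovered 57, 53 and 57 of 100 in the order of the comparisons given above, and of those changed by 2-fold 70, 74 and 75 of 100, with 0 of the wrong sign and 9, 9 and 10 false calls. A bar of 60% recovery set at first was not met at 1.5-fold, and was replaced after that run by bars on sign, slope and false calls, with the procedure unchanged. A change of this size is thus often missed.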

Additional observations from a re-analysis of the deposited data

Results flagged for a closer look

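Within groups of 4, a library was set apart where its gap to the nearest other library exceeded Dixon's 95% critical share of the group's range. Of 141 groups (47 members in 3 groups), 6 were set apart, and chance sets apart about 1 in 20. The level of Mcm2 in col1 replicate 1 was 16.2 CPM against 18.3 to 18.7 in the other 3. Cdc45 in col1-ACLP+SB replicate 2 was at 4.33 CPM against 6.04 to 6.19. Rfc2 in col1 replicate 3 was at 18.9 CPM against 23.8 to 24.6, and Rfc4 in col1-ACLP replicate 3 at 3.94 CPM against 4.85 to 4.87. Rrm2 in col1-ACLP+SB replicate 3 was at 8.57 CPM against 12.0 to 12.4. Tyms in col1 replicate 2 was at 14.8 CPM against 9.92 to 10.3. These fell in 6 different libraries.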

How the results depend on the processing

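In col1-ACLP against col1, 20 to 24 members passed as higher under the 8 alternatives that kept all libraries, and 13 to 24 with 1 library left out, the lowest without col1-ACLP replicate 2; past the fold limit were 6 to 13 with 1 library left out and 1 by glmTreat. In col1-ACLP+SB against col1, 6 to 9 passed with 1 library left out and up to 10 with all libraries kept; past the fold limit were 1 to 6, 4 by limma-voom and 0 by glmTreat. In col1-ACLP+SB against col1-ACLP, 0 to 2 passed as lower with 1 library left out, and 0 or 1 past the fold limit. With library size alone, a mean of at least 10 counts, the replicate block or limma-voom it was 1, and 0 past the fold limit, as by glmTreat, and with DESeq2 it was 3. No member passed as lower in the comparisons with col1, or as higher between the ACLP groups, under any alternative run. The members' median log2FC stayed at 0.36 to 0.47, 0.23 to 0.31 and -0.14 to -0.10 with 1 library left out. Library size alone moved the share of higher among all calls from 53.1% to 38.3% in col1-ACLP against col1 and from 38.7% to 59.0% between the ACLP groups, and 20 members still passed as higher in the former. The replicate block gave 24, 9 and 1 members past the test. Same-numbered libraries did not deviate together (correlations -0.037 to 0.036, and 2 of 12 libraries correlated best with their own number), so no pairing by number was seen. Whether same-numbered libraries were handled together is not stated, and these correlations cannot decide it. The cause of these changes was not tested, other than that leaving out a library removes a sample. A change of sign was counted as a reversal only where the member passed in 1 of the 2 fits, a choice made after the data had been seen, and there was none; of estimates that did not pass, 13 of 460, 30 of 759 and 42 of 898 changed sign, all 0.233 or less in size. Depth was not varied; Fen1 and E2f2 had the fewest counts, from 5 and 10 in a library.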
